A study of Mus musculus with 16 samples.

Results

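Imprinted genes are transcribed mainly from the copy inherited from one parent. A list of 49 mouse imprinted genes in 19 chromosomal domains was taken by gene symbol, 44 of them had a row in a table of 23609 genes, and 41 had a mean value of at least 10 over the tumors and were tested. Usp29, Klf14, Magel2, Kcnk9 and Zdbf2 had no row in the table used here, and Ascl2, Dlk1 and Asb4 had a row but a mean below 10. The rule for the list used gene names and no measured value, although earlier results of these data were known when it was drawn up.

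RNA from whole primary mammary tumors of mice was sequenced, with 5 wildtype and 5 gene trap tumors matched to a column of the table, out of 16 tumors in the labels. Every mouse carried the MMTV-PyMT transgene, in which the promoter of mouse mammary tumor virus drives the polyoma middle T oncogene in mammary epithelium. Gene trap mice were heterozygous (MMTV-PyMT/Resf1 +/-) for a lentiviral enhancer and gene trap in the first exon of Resf1, which fuses an EGFP and Cre cassette to the message and truncates it, and wildtype mice were littermates with PyMT and no trap. In the paper the gene trap strain was of C57BL background and was crossed to FVB mice carrying MMTV-PyMT, and F1 mice were studied. Whether the mother or the father passed on the trap was not given in the sources used here. RESF1 is a nuclear protein reported to interact with the H3K9 methyltransferase SETDB1 in embryonic stem cells. In breast cancer cell lines with less Resf1 the paper saw no change in endogenous retroelements or global H3K9me3. It proposes that the metastatic phenotype is unrelated to SETDB1. The comparison here asks whether a trap in 1 copy of Resf1 went with other levels of imprinted transcripts. Ages were not given in the sources used here, the labels gave the tissue as mammary tumor, and the markers of luminal mammary epithelium were present in all 10 tumors, with summed values of 94384 to 125388.

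In most imprinted domains, DNA methylation laid down in the egg or the sperm at a control region marks the parental origin of the chromosome. DNMT1, UHRF1 and a KRAB zinc finger pathway keep this methylation through every cell division. In that pathway ZFP57, TRIM28 and SETDB1 act at methylated copies. Long noncoding RNAs such as Kcnq1ot1 and Airn silence neighbors on their own chromosome, while at Igf2-H19 an insulator bound by CTCF decides which of the pair reaches the enhancers. Many of the genes are known to govern growth of the embryo and the placenta, with paternally expressed growth promoters and maternally expressed growth restrainers. The table gives the sum over both parental alleles, so it holds no measure of imprinting itself. In whole tumors fewer cells of a type and less RNA per cell cannot be told apart.

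The promoter windows of transcripts whose levels are described in most detail are shown first, with the hexamer known to be bound by ZFP57 when methylated in capitals. The hexamer is TGCCGC, searched on both strands and therefore also as its reverse complement, which reads GCGGCA. Windows were taken from RefSeq on build GRCm38.p6, and 37 of the 49 genes matched. Nespas, Sgce, Cdkn1c, Klf14, Peg10, Rtl1, Peg13, Kcnk9, Impact, H19, Kcnq1 and Trappc9 had no window used here. The first is the antisense RNA of the Kcnq1 domain, which had the smallest p-value of the list, and the next 3 are noncoding RNAs of the Dlk1-Dio3 domain whose levels moved together over the tumors. Each of these 4 windows holds 300 bases, from 250 before to 50 after the start of the transcript.
Kcnq1ot1, chr7:143296498-143296797 on the minus strand: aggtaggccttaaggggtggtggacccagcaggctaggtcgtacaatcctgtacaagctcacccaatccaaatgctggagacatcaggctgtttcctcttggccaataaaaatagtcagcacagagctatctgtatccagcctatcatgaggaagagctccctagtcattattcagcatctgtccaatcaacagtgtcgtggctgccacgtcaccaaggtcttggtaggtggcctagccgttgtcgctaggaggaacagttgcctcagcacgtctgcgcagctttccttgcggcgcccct
Meg3, chr12:109540746-109541045 on the plus strand: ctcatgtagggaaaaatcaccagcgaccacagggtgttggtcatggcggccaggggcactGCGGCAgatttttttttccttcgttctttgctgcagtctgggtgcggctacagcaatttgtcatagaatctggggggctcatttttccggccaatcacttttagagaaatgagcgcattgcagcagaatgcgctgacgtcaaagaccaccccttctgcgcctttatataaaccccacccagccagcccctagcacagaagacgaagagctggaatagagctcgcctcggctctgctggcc
Rian, chr12:109603695-109603994 on the plus strand: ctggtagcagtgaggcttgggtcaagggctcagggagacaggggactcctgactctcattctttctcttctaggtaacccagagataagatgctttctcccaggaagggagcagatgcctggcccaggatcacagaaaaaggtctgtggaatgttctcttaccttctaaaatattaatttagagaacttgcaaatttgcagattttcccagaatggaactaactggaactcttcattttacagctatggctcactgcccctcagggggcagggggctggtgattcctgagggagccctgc
Mirg, chr12:109734731-109735030 on the plus strand: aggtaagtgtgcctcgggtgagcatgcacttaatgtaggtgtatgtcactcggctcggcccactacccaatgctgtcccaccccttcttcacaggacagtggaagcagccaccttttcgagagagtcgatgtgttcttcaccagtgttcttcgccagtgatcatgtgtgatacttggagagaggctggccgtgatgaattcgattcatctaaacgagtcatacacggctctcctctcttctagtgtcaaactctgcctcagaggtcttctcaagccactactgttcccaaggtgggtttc
The Meg3 window held 1 hexamer and 13 CpG, the Kcnq1ot1 window 9 CpG and no hexamer, the Mirg window 10 CpG and no hexamer, and the Rian window neither a CpG nor a hexamer. For 3 protein-coding genes the 250 bases before the start are given: Cd81 and Tssc4, neighbors whose levels moved together, and Mest, whose window held the hexamer more than once.
Cd81, chr7:143052500-143052749 on the plus strand: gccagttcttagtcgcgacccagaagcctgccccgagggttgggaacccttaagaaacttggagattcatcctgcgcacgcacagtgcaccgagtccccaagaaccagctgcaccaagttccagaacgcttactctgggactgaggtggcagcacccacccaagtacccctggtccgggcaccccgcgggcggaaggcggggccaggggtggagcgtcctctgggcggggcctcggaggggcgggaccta
Tssc4, chr7:143069118-143069367 on the plus strand: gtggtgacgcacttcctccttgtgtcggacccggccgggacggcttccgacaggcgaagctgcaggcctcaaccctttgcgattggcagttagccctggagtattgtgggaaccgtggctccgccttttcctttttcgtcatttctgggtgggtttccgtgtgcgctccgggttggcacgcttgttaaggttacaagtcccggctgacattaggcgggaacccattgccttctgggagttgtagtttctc
Mest, chr6:30737800-30738049 on the plus strand: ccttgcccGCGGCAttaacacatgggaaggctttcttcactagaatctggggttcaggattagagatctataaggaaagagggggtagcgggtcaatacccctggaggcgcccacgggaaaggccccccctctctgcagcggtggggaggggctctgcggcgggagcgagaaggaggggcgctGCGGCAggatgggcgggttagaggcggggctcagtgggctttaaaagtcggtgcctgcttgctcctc
The Mest window held 2 hexamers. RefSeq gives Meg3 and Mest further windows at other starts, which are not printed. Over all windows, 13 of 56 windows of the imprinted genes held it (23.2%), against 3813 of 32851 windows in the reference (11.6%). Overlapping windows of a gene were each counted, as for Mest, where windows start at 30737800 and 30737803. The median CpG count per window was 14.5 in the imprinted genes and 7 in the whole reference. The hexamer itself holds a CpG, and the part of CpG content in the share of windows with it was not tested. A match to these letters is a description of the sequence and not a site of binding.

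In the Dlk1-Dio3 domain the paternally expressed Rtl1 is transcribed across from maternally expressed miRNA precursors. RefSeq placed 13 mature miRNAs inside Rtl1, 11 of them on the opposite strand, with 13 distinct seeds. Examples are given with the seed, bases 2 to 8, in capitals.
mmu-miR-431-5p: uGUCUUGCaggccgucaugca
mmu-miR-433-3p: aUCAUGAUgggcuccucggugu
mmu-miR-127-3p: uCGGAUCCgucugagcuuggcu
mmu-miR-136-5p: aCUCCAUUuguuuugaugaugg
Because the strand setting of the counting was not given in the sources used here, reads of Rtl1 and of the maternal RNA that crosses it cannot be told apart.

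Resf1 itself was looked at as a check of the labels. Its values, on the authors' normalized scale and in the order of replicates 1 to 5 as for every gene that follows, were 4215, 4397, 3881, 4487 and 3517 in wildtype tumors and 4029, 3066, 3686, 3392 and 3409 in gene trap tumors. The mean was 4099 ± 400 (SD, n = 5) in wildtype and 3516 ± 361 (SD, n = 5) in gene trap tumors, and 3 gene trap tumors lay below every wildtype tumor while the groups overlapped. The log2 fold change on the log2(value + 1) scale, gene trap minus wildtype here and throughout, was -0.22 (SE 0.09, unadjusted limma p = 0.0313, two-sided exact permutation p = 0.0635), with an adjusted p of 0.9997. Without gene trap replicate 2 it was -0.17, with an unadjusted limma p of 0.0684. The difference, a change of -14.2% on that scale, had the direction of the labels. It did not pass the test over all genes, so it does not establish the labels. What a larger loss of Resf1 would do to the imprinted genes was not tested.

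Across the whole table, column totals ran from 31995078 to 42153593 on the normalized scale, and sequencing depth was not known. Gene trap replicate 2 stood apart on the first principal component, at 91.8 against -18.6 to -4.79 in the others, so values without it are given for genes whose estimate changed sign or whose unadjusted call changed. Summed myoepithelial markers were lower in gene trap (5537 to 7455) than in wildtype tumors (7452 to 10277, two-sided exact permutation p = 0.0159), with 8 of 8 markers lower, 2 of them at an unadjusted limma p under 0.05 and 0 at an adjusted one. That permutation p was the smallest among the cell type sums and was not adjusted for their number. In the other sums the exact permutation p ran from 0.484 to 0.992. Fibroblast sums ran from 50224 to 111217 in wildtype and from 68956 to 147151 in gene trap tumors. The part of these cells in the values of the imprinted genes was not tested. Among the adipocyte and skeletal muscle markers, Plin1, Lep, Retn, Cidec, Myh1 and Myh4 had no row in the table used here.

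No imprinted gene passed the test. By limma with Benjamini-Hochberg adjustment over 21034 genes, 0 of the 41 imprinted genes had an adjusted p under 0.05, where the share over all tested genes was 0%, and each imprinted gene had an adjusted p of 0.9997. At an unadjusted p under 0.05 the count was 1 gene higher in gene trap tumors, Kcnq1ot1, beside 1.32% of all tested genes, and 0 genes lower, beside 0.956%. In 0 of the 41 did the values of the groups stay apart without overlap, which 0.528% of all tested genes did. The share of imprinted genes at an unadjusted p under 0.05 in either direction, 2.44%, was near the 2.28% of all tested genes.

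The differences were small, with a median size of the log2 fold change of 0.11, near the 0.10 of all tested genes. The log2 fold change was above 0 in 26 imprinted genes and below 0 in 15, with a median of 0.04 and a range from -0.53 for Peg10 to 0.59 for Rtl1, beside a median of 0.00 over all tested genes. Of the 41, 34 differed by less than 1.2-fold and 1, Rtl1, by at least 1.5-fold. Of all 21034 tested genes, 17234 differed by less than 1.2-fold and 673 by at least 1.5-fold, with 10813 estimates above 0 and 10221 below. Paternally expressed genes had a median log2 fold change of 0.08 (14 higher and 7 lower of 21) and maternally expressed genes one of 0.04 (12 higher and 7 lower of 19). These classes were taken as background, can differ between tissues and were not measured in these tumors. The split therefore does not compare parental alleles. Without gene trap replicate 2 the estimates of Copg2, Impact, Ube3a and Blcap, which lay between -0.06 and 0.00, lay between 0.00 and 0.04. A p above the threshold does not show that the levels were equal.

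**Figure D1:**
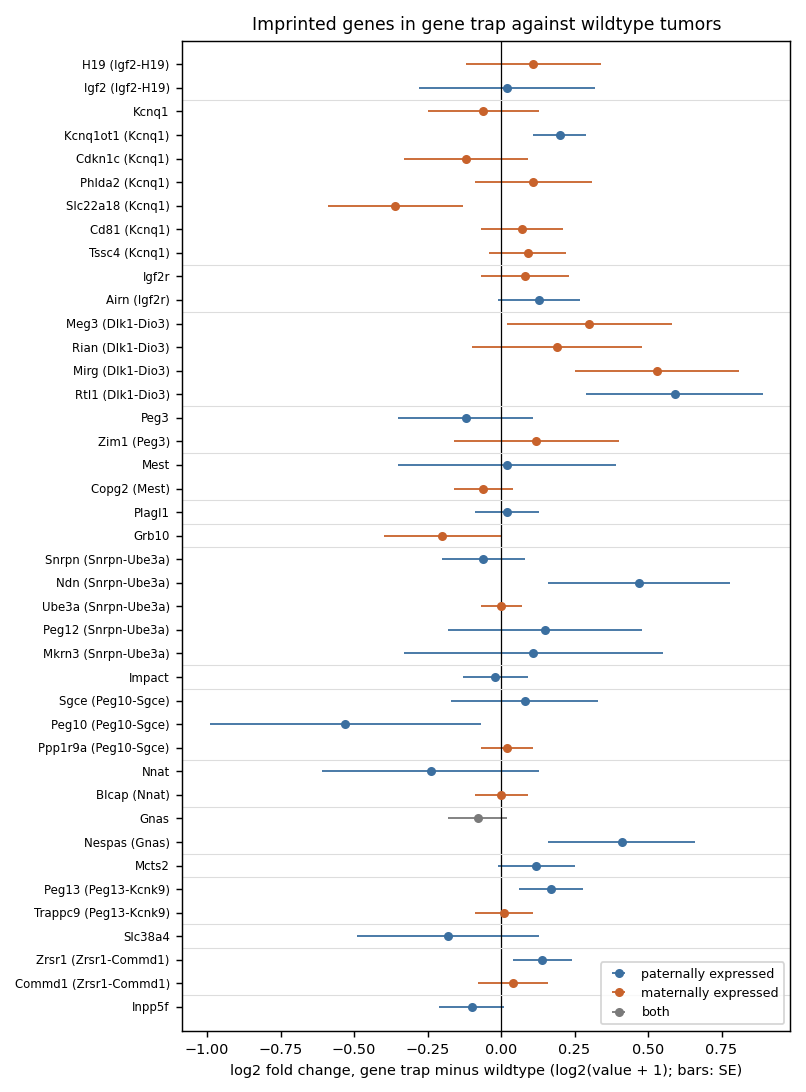
Log2 fold change (gene trap minus wildtype, on the log2(value + 1) scale) of the 41 tested imprinted genes, ordered by domain, the domain in brackets. Points are estimates from limma with 5 tumors in each group and bars are SE. Color gives the expressed allele taken as background, which was not measured here. Estimates lie between -0.53 and 0.59, and the SE bar of Kcnq1ot1 (0.20, SE 0.09) is among those that stay clear of 0.

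Levels between genes were compared per kb of exon. The mean over the 10 tumors was highest for Cd81, a tetraspanin of the cell surface, at 5590 per kb, followed by Igf2r at 1280, Gnas at 1110, H19 at 780 and Tssc4 at 654. At the low end stood Zim1 at 3.53, Igf2 at 1.92, Asb4 at 1.66 and Dlk1 at 0.762 per kb. Partners within a domain could lie far apart: H19 stood at 780 per kb and its neighbor Igf2 at 1.92, and Igf2r at 1280 and Airn at 190.

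**Figure D2:**
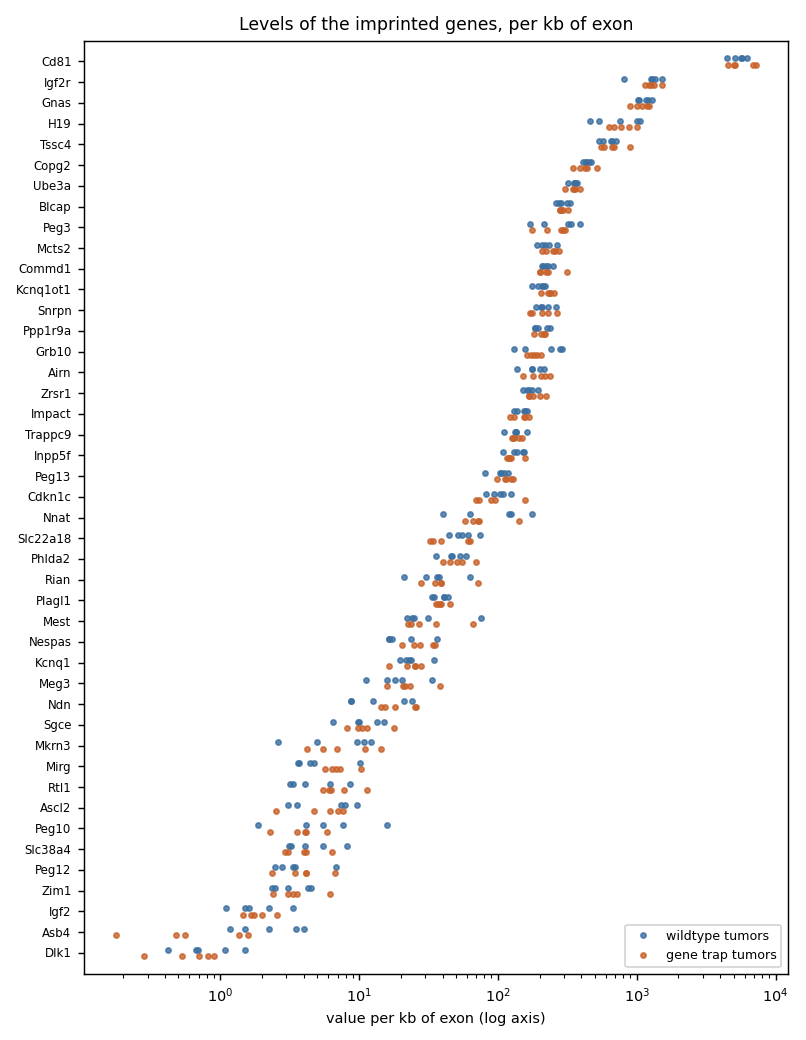
Value per kb of exon (log axis) of the 44 imprinted genes with a row, in each of 5 wildtype and 5 gene trap tumors, ordered by the mean. The points of Cd81 lie at the top (mean 5590 per kb) and those of Dlk1 at the bottom (mean 0.762 per kb), and the colors overlap in every row.

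How far a gene varied from tumor to tumor differed within the list. The SD of the log2 values over the 10 tumors was 0.10 for Ube3a, 0.11 for Blcap and 0.13 for Ppp1r9a, and 0.85 for Peg10, 0.74 for Mkrn3, 0.67 for Nnat, 0.64 for Mest and 0.58 for Rtl1. The ratio of the highest to the lowest tumor was 1.27 for Blcap and 8.59 for Peg10.

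**Figure D3:**
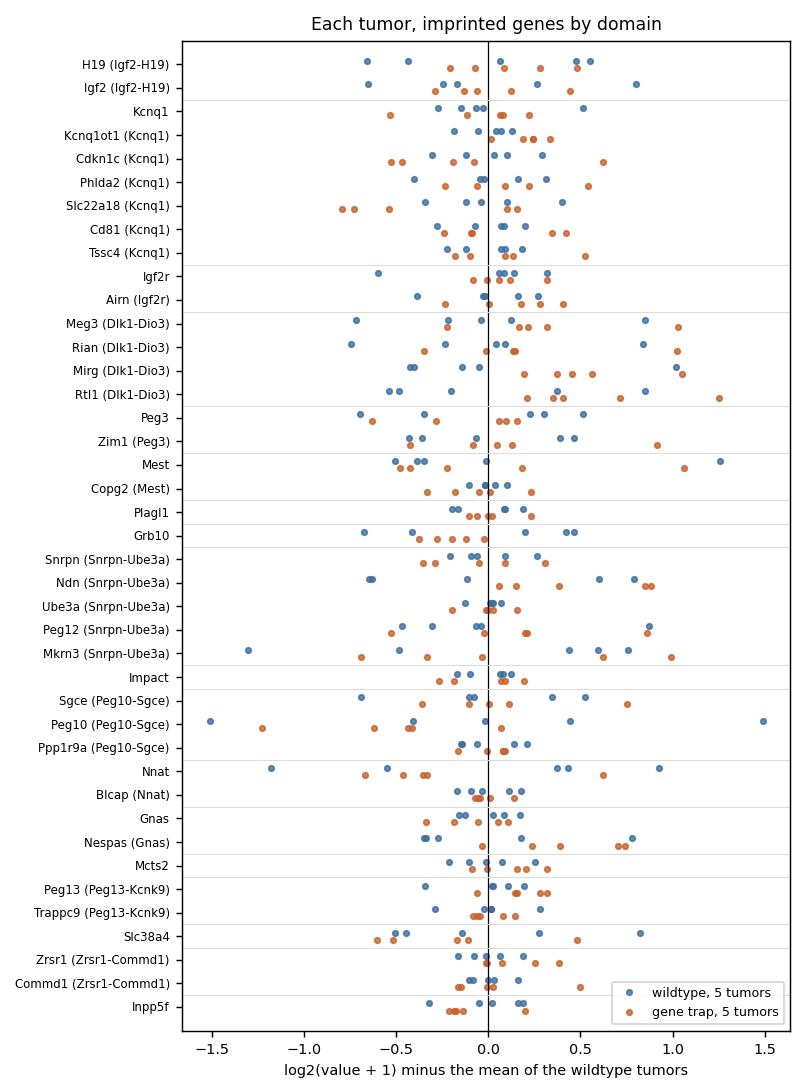
Log2(value + 1) of each tumor minus the mean of the wildtype tumors, for the 41 tested imprinted genes by domain; each point is 1 of 5 wildtype or 5 gene trap tumors. Wildtype and gene trap points overlap for every gene, widely for Peg10 and Mkrn3 and narrowly for Kcnq1ot1, for which 4 gene trap tumors lie above every wildtype tumor.

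In the Kcnq1 domain on chromosome 7, the paternally expressed Kcnq1ot1, an unspliced antisense RNA that silences the neighbors on its own chromosome, had the smallest p-value of the list. It stood at 20385, 16424, 19601, 19245 and 17984 in wildtype tumors and 22064, 21288, 22088, 18902 and 23535 in gene trap tumors. All gene trap tumors but replicate 4 lay above every wildtype tumor, with means of 21575 ± 1701 (SD, n = 5) against 18728 ± 1552 (SD, n = 5). The log2 fold change was 0.20 (SE 0.09, unadjusted limma p = 0.0355, two-sided exact permutation p = 0.0317), and with each tumor left out in turn it ran from 0.16 to 0.25. The unadjusted limma p was above 0.05 without wildtype replicate 2 or 5 or gene trap replicate 1, 3 or 5. It did not pass the adjustment over all genes.

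The maternally expressed genes of the same domain had estimates on both sides of 0. Slc22a18, a membrane transporter, stood at 75.5, 103, 127, 93.3 and 88.1 in wildtype tumors and 57.6, 107, 65.8, 54.9 and 103 in gene trap tumors. Gene trap replicates 1, 3 and 4 lay below every wildtype tumor, while replicates 2 and 5 lay within the wildtype range. This gave a log2 fold change of -0.36 (SE 0.23, unadjusted limma p = 0.14, two-sided exact permutation p = 0.159), and with a tumor left out it ran from -0.49 (unadjusted limma p of 0.0432, without gene trap replicate 2) to -0.25 (p of 0.302, without gene trap replicate 4). Cdkn1c, the cyclin-dependent kinase inhibitor p57, ran from 167 to 253 in wildtype and from 143 to 319 in gene trap tumors, with a log2 fold change of -0.12 (SE 0.21). Of the exon bases of Cdkn1c, 30.7% are shared with an antisense gene on the other strand. Phlda2, which limits growth of the placenta, ran from 40.1 to 66.4 and from 45.2 to 78.0, with a log2 fold change of 0.11 (SE 0.20) that was 0.00 without gene trap replicate 2. Kcnq1, the potassium channel inside which the antisense RNA starts, ran from 81.2 to 141 and from 67.8 to 115, with a log2 fold change of -0.06 (SE 0.19) that was 0.06 without gene trap replicate 2, so the groups overlapped for each of these. Ascl2, a helix-loop-helix factor of the trophoblast, stayed between 4.1 and 15.6 and was not tested. In a fit with no filter on low values its log2 fold change was -0.12 (SE 0.37).

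Kcnq1ot1 was set against its silenced neighbors over the 10 tumors as part of 30 pairs of genes of one domain, of which 24 had both genes tested. Pearson's r was -0.53 with Kcnq1 (permutation p = 0.112, adjusted p = 0.336, rho -0.37, permutation p = 0.300), 0.24 with Cdkn1c (permutation p = 0.499, adjusted p = 0.714, rho 0.15, permutation p = 0.679) and 0.20 with Phlda2 (permutation p = 0.582, adjusted p = 0.736, rho 0.14, permutation p = 0.709). The r with Kcnq1 was -0.17 without wildtype replicate 2 and gene trap replicate 5, the tumors farthest from the median of Kcnq1ot1. None of these passed the adjustment over the 24 pairs.

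Cd81 and Tssc4 lie next to each other at the edge of this domain, and their levels moved together over the tumors. Cd81 stood at 14744, 16440, 16293, 17819 and 12782 in wildtype tumors and 13116, 20759, 14560, 14599 and 19690 in gene trap tumors. Tssc4, which encodes a factor of small nuclear ribonucleoprotein assembly, stood at 1062, 1212, 1230, 1309 and 990 in wildtype tumors and 1018, 1663, 1077, 1231 and 1268 in gene trap tumors. Both were highest in gene trap replicate 2 and lowest in wildtype replicate 5, and the groups overlapped, with log2 fold changes of 0.07 (SE 0.14) for Cd81 and 0.09 (SE 0.13) for Tssc4. Without gene trap replicate 2 they were -0.02 and -0.01.

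Over the 10 tumors r was 0.90 (permutation p = 9e-05, adjusted p = 0.00216) and Spearman's rho 0.88 (permutation p = 0.00167, adjusted p = 0.0401). This was the only one of the 24 pairs to pass the adjustment on both measures. Without gene trap replicates 2 and 5, the tumors farthest from the median of Cd81, r was again 0.90, without gene trap replicate 2 alone it was 0.87, and over deviations from the group means it was 0.90. Groups of 5 were too few for a correlation within each.

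Tssc4 ran against the summed endothelial markers, which stood at 4384, 4326, 3901, 3016 and 5542 in wildtype and at 4940, 2851, 5037, 3621 and 3561 in gene trap tumors. Among 451 relations of an imprinted gene with the sum of a marker list, a family added after the data were seen, this was the only one with an adjusted p under 0.05, with r = -0.92 (permutation p = 1e-05, the smallest that these permutations can give, adjusted p = 0.00451) and rho = -0.96 (permutation p = 5e-05, adjusted p = 0.0225). Leaving out wildtype replicate 4 and gene trap replicate 2, r was -0.92. For Cd81 r was -0.86 (permutation p = 0.00176, adjusted p = 0.0992) and rho -0.89 (permutation p = 0.00103, adjusted p = 0.112). The normalized column total was also highest in gene trap replicate 2 (42153593), where Cd81 and Tssc4 were highest and the endothelial sum was lowest. It was lowest in gene trap replicate 1 (31995078) and wildtype replicate 5 (32151583), where Cd81 and Tssc4 were lowest. The part of cell composition, or of these totals, in the pairing of Cd81 and Tssc4 and in their relation to the endothelial sum was not tested.

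**Figure D4:**
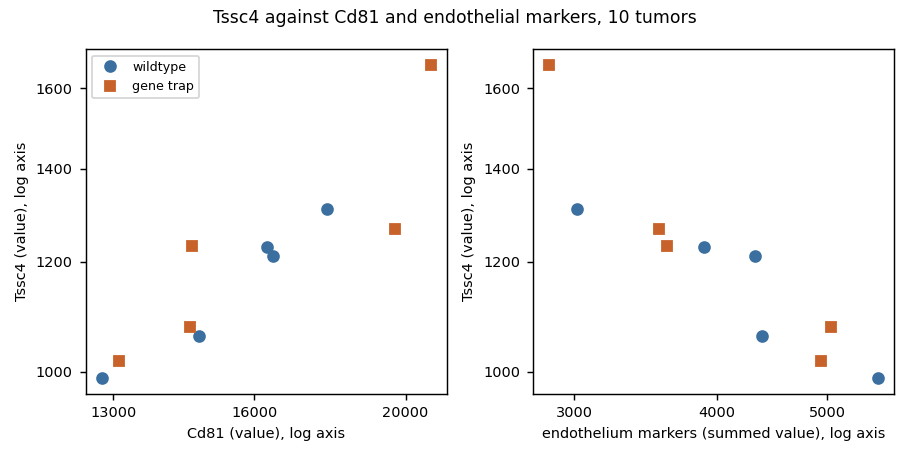
Tssc4 value in each of 10 tumors against Cd81 (left) and against the summed endothelial markers (right), all axes log; circles are wildtype and squares gene trap tumors. Tssc4 is higher where Cd81 is higher (r = 0.90) and lower where the endothelial sum is higher (r = -0.92), with both groups mixed along the trend.

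In the Dlk1-Dio3 domain on chromosome 12 all 4 tested transcripts had estimates above 0, with a median log2 fold change of 0.41, and none had an unadjusted p under 0.05. Their levels moved together over the tumors, so these are not 4 separate signs. Dlk1, below the minimum mean, had an estimate below 0 in a fit with no filter on low values. Meg3, a maternally expressed noncoding RNA at the head of the domain, stood at 366, 327, 289, 204 and 607 in wildtype tumors and 688, 377, 419, 288 and 390 in gene trap tumors. Rian, the host of many C/D box snoRNAs, stood at 689, 550, 665, 386 and 1158 in wildtype tumors and 1313, 507, 709, 641 and 716 in gene trap tumors. Both were highest in gene trap replicate 1 and wildtype replicate 5 and lowest in wildtype replicate 4, and the groups overlapped, with log2 fold changes of 0.30 (SE 0.28, unadjusted limma p = 0.299, two-sided exact permutation p = 0.365) for Meg3 and 0.19 (SE 0.29, unadjusted limma p = 0.524, two-sided exact permutation p = 0.571) for Rian. With a tumor left out they ran from 0.12 (without gene trap replicate 1) to 0.51 (without wildtype replicate 5) for Meg3, and from -0.02 to 0.40 without the same tumors for Rian.

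Mirg, the host of a cluster of miRNAs, stood at 26.5, 34.6, 32.4, 26.9 and 73.6 in wildtype tumors and 75.5, 49.6, 53.5, 46.7 and 41.2 in gene trap tumors. Wildtype replicates 1 to 4 lay below every gene trap tumor, but wildtype replicate 5 lay above all gene trap tumors except replicate 1. Its log2 fold change was 0.53 (SE 0.28, unadjusted limma p = 0.0884, two-sided exact permutation p = 0.127), and with a tumor left out it ran from 0.40 (unadjusted limma p of 0.205, without gene trap replicate 1) to 0.78 (p of 0.00424, without wildtype replicate 5). Rtl1, a protein derived from a retrotransposon and needed for placental vessels, stood at 21.2, 26, 39.2, 20.4 and 55.1 in wildtype tumors and 73, 38.6, 49.9, 40.1 and 35 in gene trap tumors. Wildtype replicates 1, 2 and 4 lay below every gene trap tumor, and gene trap replicate 1 lay above every wildtype tumor. Because the strand setting was not given, these values can include the maternal RNA that crosses Rtl1. The log2 fold change was 0.59 (SE 0.30, unadjusted limma p = 0.0782, two-sided exact permutation p = 0.127), and with a tumor left out it ran from 0.42 (unadjusted limma p of 0.195, without gene trap replicate 1) to 0.80 (p of 0.0150, without wildtype replicate 5). Dlk1, a transmembrane protein of the Notch ligand family, ran from 1.6 to 8.6 over all tumors and was not tested.

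The transcripts of this domain moved together over the tumors. For Meg3 and Rian r was 0.91 (permutation p = 0.00072, adjusted p = 0.00864) and rho 0.83 (permutation p = 0.00485, adjusted p = 0.0582). For Meg3 and Mirg r was 0.84 (permutation p = 0.00249, adjusted p = 0.0199) and rho 0.77 (permutation p = 0.0132, adjusted p = 0.106). The maternally expressed Meg3 and the paternally expressed Rtl1 had an r of 0.78 (permutation p = 0.00849, adjusted p = 0.0412) and a rho of 0.67 (permutation p = 0.0400, adjusted p = 0.192). Reads of Rtl1 cannot be told apart from the maternal RNA that crosses it, so this pair does not compare parental alleles. Rian and Mirg had an r of 0.76 (permutation p = 0.00859, adjusted p = 0.0412) and a rho of 0.58 (permutation p = 0.0868, adjusted p = 0.347).

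These 4 relations passed the adjustment for r and not for rho. Without wildtype replicate 4 and gene trap replicate 1, the tumors farthest from the median, r was 0.76 for Meg3 and Rian, 0.70 for Meg3 and Mirg, 0.53 for Rian and Mirg and 0.47 for Meg3 and Rtl1. Without wildtype replicate 4, wildtype replicate 5 or gene trap replicate 1 alone, 1 of the 24 pairs passed, that of Cd81 and Tssc4, and without wildtype replicate 2 that of Meg3 and Rian passed as well. With a single tumor left out, r was never below 0.86 for Meg3 and Rian, 0.77 for Meg3 and Mirg, 0.65 for Rian and Mirg and 0.66 for Meg3 and Rtl1. Without gene trap replicate 2, r for the same 4 pairs was 0.96, 0.84, 0.85 and 0.78.

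The summed fibroblast markers were highest in the same tumors, at 147151 in gene trap replicate 1 and 111217 in wildtype replicate 5, and lowest at 50224 in wildtype replicate 4. With Meg3 the r was 0.86 (permutation p = 0.0028, adjusted p = 0.124, rho 0.60, permutation p = 0.0739) and with Rian 0.92 (permutation p = 0.00076, adjusted p = 0.0686, rho 0.70, permutation p = 0.0307). Neither passed the adjustment over 451 relations. All 9 fibroblast markers had a row, and the part of fibroblasts in the levels of these RNAs was not tested.

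**Figure D5:**
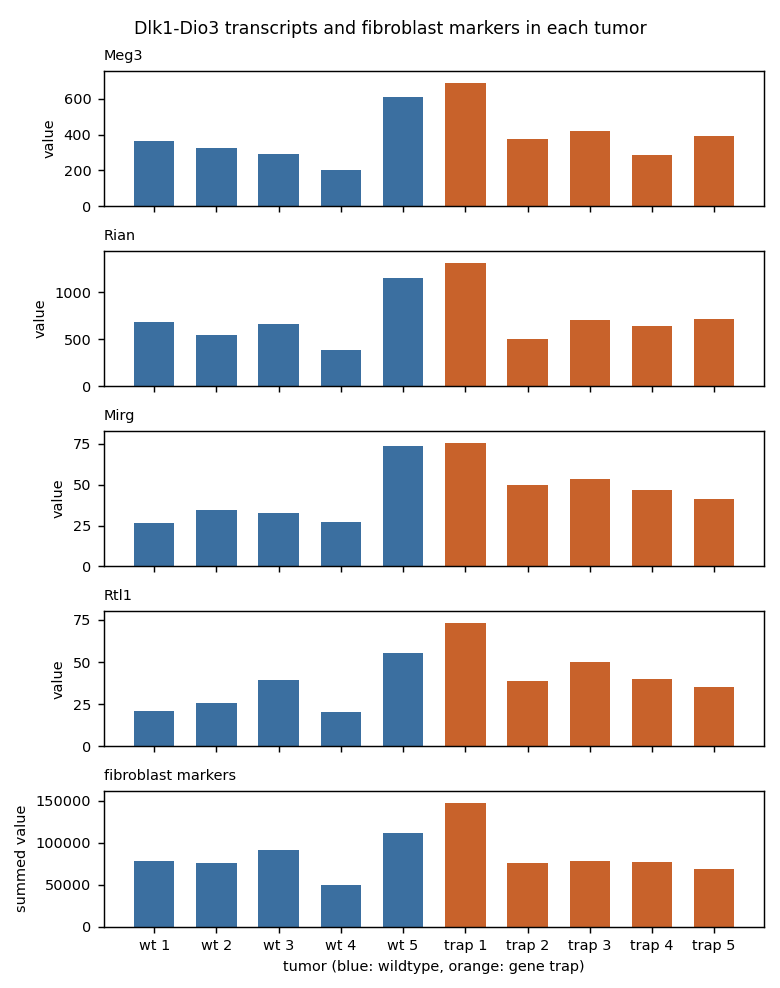
Values of Meg3, Rian, Mirg and Rtl1 and the sum of 9 fibroblast markers in each tumor, linear axes from 0, 1 bar for 1 tumor (wt: wildtype, trap: gene trap). In each panel gene trap replicate 1 and wildtype replicate 5 have the tallest bars, as for Meg3 at 688 and 607.

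In the Igf2-H19 domain, H19, a noncoding RNA that is the precursor of miR-675, stood at 1320, 2477, 1130, 1864 and 2618 in wildtype tumors and 2164, 1698, 1889, 1545 and 2492 in gene trap tumors. The gene trap tumors lay inside the wildtype range, and the log2 fold change was 0.11 (SE 0.23, unadjusted limma p = 0.625, two-sided exact permutation p = 0.683). Igf2, the fetal growth factor of the domain, was low in both groups, from 6.3 to 19.05 in wildtype and from 8.4 to 14.6 in gene trap tumors, with a log2 fold change of 0.02 (SE 0.30). In the annotation 62.8% of its exon bases also belong to an overlapping gene model on the same strand, so its value is uncertain. H19 and Igf2 had an r of 0.32 over the tumors (permutation p = 0.361, adjusted p = 0.667, rho 0.45, permutation p = 0.190).

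Igf2r, the receptor that clears IGF2 and sorts lysosomal enzymes, stood at 14193, 7521, 11840, 12547 and 12078 in wildtype tumors and 14183, 11342, 11853, 12374 and 10766 in gene trap tumors. Wildtype replicate 2 was the lowest, and the other 9 tumors lay between 10766 and 14193. This gave a log2 fold change of 0.08 (SE 0.15, unadjusted limma p = 0.596, two-sided exact permutation p = 0.778). Airn, the paternally expressed antisense RNA that silences Igf2r, ran from 493 to 778 in wildtype and from 547 to 853 in gene trap tumors, with a log2 fold change of 0.13 (SE 0.14). Their r was 0.24 (permutation p = 0.510, adjusted p = 0.714, rho 0.32, permutation p = 0.367).

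In the Peg3 domain the zinc finger gene Peg3 stood at 2258, 2864, 4497, 5222 and 4269 in wildtype tumors and 4071, 2357, 3799, 3897 and 2995 in gene trap tumors. Wildtype replicates 3, 4 and 5 lay above every gene trap tumor and wildtype replicate 1 below them, so the gene trap tumors fell inside the wildtype range. Its log2 fold change was -0.12 (SE 0.23, unadjusted limma p = 0.6, two-sided exact permutation p = 0.611), and without gene trap replicate 2 it was 0.01. The maternally expressed Zim1, another zinc finger gene, ran from 19.2 to 36.5 and from 19.3 to 50.3, with a log2 fold change of 0.12 (SE 0.28). The r of the pair was 0.61 (permutation p = 0.0593, adjusted p = 0.203, rho 0.72, permutation p = 0.0234).

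Mest, which encodes a hydrolase-like membrane protein of the mesoderm, stood at 95.3, 300, 87.7, 98.2 and 124 in wildtype tumors and 89.6, 93.1, 142, 107 and 262 in gene trap tumors. Wildtype replicate 2 and gene trap replicate 5 were the highest of their groups, at 300 and 262, and the rest lay between 87.7 and 142. The log2 fold change was 0.02 (SE 0.37, unadjusted limma p = 0.951, two-sided exact permutation p = 0.944). Copg2, a coatomer subunit of Golgi vesicles that overlaps Mest on the other strand, stood at 2419, 2093, 2314, 2222 and 2223 in wildtype tumors and 2178, 1791, 1985, 2265 and 2643 in gene trap tumors, with a log2 fold change of -0.06 (SE 0.10, unadjusted limma p = 0.522, two-sided exact permutation p = 0.532). The wildtype tumors lay inside the gene trap range. The exons of the pair share 912 bases, 23.1% of those of Mest.

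Single-gene domains showed overlapping groups as well. Plagl1, a zinc finger regulator of other imprinted genes, stood at 321, 269, 344, 320 and 263 in wildtype tumors and 301, 306, 355, 289 and 281 in gene trap tumors, with a log2 fold change of 0.02 (SE 0.11, unadjusted limma p = 0.893, two-sided exact permutation p = 0.873). Grb10, an adaptor that damps insulin and IGF receptor signaling, stood at 1192, 1425, 2620, 2183 and 2545 in wildtype tumors and 1747, 1466, 1566, 1655 and 1871 in gene trap tumors. All gene trap tumors fell in the gap between wildtype replicates 1 and 2, below them, and wildtype replicates 3, 4 and 5, above them. This gave a log2 fold change of -0.20 (SE 0.20, unadjusted limma p = 0.343, two-sided exact permutation p = 0.421), and with a tumor left out it ran from -0.37 (unadjusted limma p of 0.0461, without wildtype replicate 1) to -0.08 (p of 0.684, without wildtype replicate 3). Impact, an inhibitor of the GCN2 stress kinase, stood at 801, 673, 707, 793 and 826 in wildtype tumors and 867, 667, 794, 630 and 807 in gene trap tumors, with a log2 fold change of -0.02 (SE 0.11, unadjusted limma p = 0.858, two-sided exact permutation p = 0.81).

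Slc38a4, an amino acid transporter of liver and placenta, stood at 13.3, 17.4, 23.6, 13.9 and 34.9 in wildtype tumors and 13.2, 17.8, 17.1, 27.4 and 12.4 in gene trap tumors, with a log2 fold change of -0.18 (SE 0.31, unadjusted limma p = 0.57, two-sided exact permutation p = 0.579). Wildtype replicate 5 was the highest, and the groups overlapped. Mcts2, an intron-less copy of a translation factor gene whose reads can be shared with its parent, stood at 189, 242, 175, 201 and 214 in wildtype tumors and 191, 253, 234, 202 and 226 in gene trap tumors, with a log2 fold change of 0.12 (SE 0.13, unadjusted limma p = 0.368, two-sided exact permutation p = 0.302). Inpp5f, a phosphoinositide phosphatase, stood at 1265, 905, 1288, 1148 and 1092 in wildtype tumors and 974, 1001, 1029, 994 and 1300 in gene trap tumors, with a log2 fold change of -0.10 (SE 0.11, unadjusted limma p = 0.38, two-sided exact permutation p = 0.413). Gene trap replicate 5, at 1300, was above all the other tumors, its group otherwise running from 974 to 1029.

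In the Snrpn-Ube3a domain, known from the Prader-Willi and Angelman syndromes, Ndn, a growth-restraining MAGE protein, stood at 46.9, 32.5, 77.9, 32.2 and 88.9 in wildtype tumors and 94.7, 92.8, 53, 66.8 and 56.7 in gene trap tumors. Gene trap replicates 1 and 2 lay above every wildtype tumor, and wildtype replicates 1, 2 and 4 lay below every gene trap tumor. Its log2 fold change was 0.47 (SE 0.31, unadjusted limma p = 0.162, two-sided exact permutation p = 0.206), and with a tumor left out it ran from 0.30 (unadjusted limma p of 0.354, without wildtype replicate 4) to 0.66 (p of 0.0471, without wildtype replicate 5). Mkrn3, a RING finger protein that restrains the start of puberty, stood at 12.6, 6.7, 31.1, 27.7 and 24.7 in wildtype tumors and 36.8, 10.8, 28.3, 17.6 and 14.1 in gene trap tumors, with a log2 fold change of 0.11 (SE 0.44, unadjusted limma p = 0.8, two-sided exact permutation p = 0.81). It spread 5.45-fold, from wildtype replicate 2 at the bottom to gene trap replicate 1 at the top.

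Ube3a, a ubiquitin ligase imprinted in neurons, had the smallest SD of log2 values among the tested imprinted genes and stood at 7306, 6655, 7610, 7355 and 7375 in wildtype tumors and 7395, 6323, 7196, 7251 and 8087 in gene trap tumors. The wildtype tumors lay inside the gene trap range, and the log2 fold change was -0.00 (SE 0.07, unadjusted limma p = 0.949, two-sided exact permutation p = 0.929). Snrpn, a protein of small nuclear ribonucleoproteins, ran from 405 to 563 and from 366 to 579, with a log2 fold change of -0.06 (SE 0.14). In the annotation 27.3% of the exon bases of Snrpn also belong to a gene model on the same strand, and 10% to Snurf, so its value is uncertain. Peg12, a GSK3-binding protein, ran from 6.5 to 18.0 and from 6.2 to 17.8, with a log2 fold change of 0.15 (SE 0.33). Snrpn had an r of 0.63 with Ube3a (permutation p = 0.0453, adjusted p = 0.181, rho 0.47, permutation p = 0.181) and of -0.24 with Ndn (permutation p = 0.503, adjusted p = 0.714, rho -0.31, permutation p = 0.389).

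In the Peg10-Sgce domain on chromosome 6, Peg10, a gag-pol protein derived from a retrotransposon and needed for the placenta, stood at 12.4, 50.9, 36.7, 106 and 27.7 in wildtype tumors and 23.8, 27.6, 39, 27.2 and 15.3 in gene trap tumors. It varied most among the tested imprinted genes, wildtype replicates 4 and 1 marking the extremes at 106 and 12.4. The log2 fold change was -0.53 (SE 0.46, unadjusted limma p = 0.279, two-sided exact permutation p = 0.373), and with a tumor left out it ran from -0.90 (unadjusted limma p of 0.0377, without wildtype replicate 1) to -0.15 (p of 0.704, without wildtype replicate 4). Sgce, the epsilon subunit of the sarcoglycan complex that shares a promoter region with Peg10, ran from 68.9 to 161 and from 86.9 to 189, with a log2 fold change of 0.08 (SE 0.25). Their r was -0.35 (permutation p = 0.321, adjusted p = 0.642, rho -0.21, permutation p = 0.559).

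Ppp1r9a, an actin-binding partner of protein phosphatase 1, stood at 3433, 2837, 2690, 3264 and 2675 in wildtype tumors and 3158, 2952, 3138, 2645 and 3135 in gene trap tumors, with a log2 fold change of 0.02 (SE 0.09, unadjusted limma p = 0.851, two-sided exact permutation p = 0.865). Asb4, a substrate adaptor of ubiquitin ligases, was under the minimum mean and is named here after its values were seen. It stood at 8.8, 5.9, 15.9, 4.6 and 13.8 in wildtype tumors and 2.2, 1.9, 5.4, 6.2 and 0.7 in gene trap tumors. Gene trap replicates 1, 2 and 5 lay below every wildtype tumor, and wildtype replicates 1, 3 and 5 lay above every gene trap tumor. In a fit with no filter on low values its log2 fold change was -1.41 (SE 0.45), with an unadjusted limma p of 0.00849 and an adjusted p of 0.9998.

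Nnat, a small membrane proteolipid expressed in neurons and endocrine cells, lies within an intron of Blcap and stood at 73.9, 115, 321, 228 and 219 in wildtype tumors and 122, 260, 106, 132 and 134 in gene trap tumors. Gene trap replicate 2 was the highest of its group at 260, its group otherwise running from 106 to 134. This gave a log2 fold change of -0.24 (SE 0.37, unadjusted limma p = 0.532, two-sided exact permutation p = 0.579), and with a tumor left out it ran from -0.53 (without wildtype replicate 1) to -0.01 (without wildtype replicate 3). Blcap, an apoptosis-related protein first described in bladder cancer, stood at 793, 1009, 963, 871 and 834 in wildtype tumors and 858, 847, 864, 981 and 898 in gene trap tumors, with a log2 fold change of -0.00 (SE 0.09, unadjusted limma p = 0.969, two-sided exact permutation p = 0.976).

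Gnas, whose transcripts from several promoters include the stimulatory G protein alpha subunit, stood at 11651, 13527, 12974, 14356 and 11422 in wildtype tumors and 11212, 10068, 12255, 13712 and 13206 in gene trap tumors, with a log2 fold change of -0.08 (SE 0.10, unadjusted limma p = 0.419, two-sided exact permutation p = 0.444). Nespas, the paternally expressed antisense RNA of this domain, stood at 51.7, 114, 54.4, 52 and 74.9 in wildtype tumors and 64.4, 111, 78.1, 86.6 and 108 in gene trap tumors. Wildtype replicates 1, 3 and 4 lay below every gene trap tumor, and wildtype replicate 2 lay above them. Its log2 fold change was 0.41 (SE 0.25, unadjusted limma p = 0.127, two-sided exact permutation p = 0.175), and with a tumor left out it ran from 0.32 (unadjusted limma p of 0.248, without wildtype replicate 1) to 0.60 (p of 0.0156, without wildtype replicate 2). Of the exon bases of Nespas, 31.4% are shared with Gnas on the other strand.

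Peg13, a paternally expressed noncoding RNA inside Trappc9, stood at 494, 555, 382, 522 and 493 in wildtype tumors and 541, 589, 606, 466 and 536 in gene trap tumors. Gene trap replicates 2 and 3 lay above every wildtype tumor, and the log2 fold change was 0.17 (SE 0.11, unadjusted limma p = 0.169, two-sided exact permutation p = 0.183). Trappc9, a subunit of the TRAPP complex of vesicle traffic, stood at 1048, 1078, 1077, 1292 and 872 in wildtype tumors and 1006, 1020, 1176, 1124 and 1033 in gene trap tumors, with a log2 fold change of 0.01 (SE 0.10, unadjusted limma p = 0.953, two-sided exact permutation p = 0.937). Zrsr1, a splicing factor gene that arose as a copy of an X-linked one, stood at 796, 756, 868, 679 and 723 in wildtype tumors and 757, 909, 802, 755 and 995 in gene trap tumors. Gene trap replicates 2 and 5 lay above every wildtype tumor, and the log2 fold change was 0.14 (SE 0.10, unadjusted limma p = 0.195, two-sided exact permutation p = 0.206). Commd1, a regulator of copper balance and NF-kB that hosts Zrsr1 in an intron, stood at 1254, 1486, 1330, 1236 and 1358 in wildtype tumors and 1202, 1875, 1187, 1323 and 1355 in gene trap tumors, with a log2 fold change of 0.04 (SE 0.12, unadjusted limma p = 0.734, two-sided exact permutation p = 0.865). Gene trap replicate 2, at 1875, was above all the other tumors, and without it the log2 fold change was -0.07.

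Factors that keep imprints in place were examined as a separate list of 16 genes, 14 of them tested, since SETDB1 is a partner of RESF1 reported in embryonic stem cells. By limma 0 of the 14 had an unadjusted p under 0.05 or an adjusted one, with 10 estimates above 0, 4 below and a median log2 fold change of 0.03. Uhrf1, which guides DNMT1 to newly copied DNA, had the smallest p, with 2310 to 2493 in wildtype and 2149 to 3582 in gene trap tumors and a log2 fold change of 0.22 (SE 0.12, unadjusted limma p = 0.0904, exact permutation p = 0.135). Setdb1 ran from 2272 to 2805 and from 2440 to 2991 (0.10, SE 0.08). Zfp57, which binds the methylated hexamer, ran from 20.2 to 36.8 and from 14.5 to 30.0 (-0.30, SE 0.26). Trim28, the scaffold between ZFP57 and SETDB1, ran from 5893 to 7313 and from 4228 to 7609 (-0.10, SE 0.14, and 0.03 without gene trap replicate 2), and the groups overlapped for each. Dppa3 and Dnmt3l had no row in the table used here.

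Another 29 genes reported as imprinted in some tissue were taken as a further list, of which 21 were tested. By limma 0 of the 21 had an unadjusted p under 0.05 or an adjusted one, 14 estimates lay above 0 and 7 below, and the median log2 fold change was 0.02. Dio3, the thyroid hormone deiodinase at the far end of the Dlk1-Dio3 domain, ran from 12.2 to 35.0 in wildtype and from 13.2 to 41.7 in gene trap tumors, with a log2 fold change of 0.50 (SE 0.36). Nap1l5, a nucleosome assembly protein, ran from 18.1 to 23.8 and from 17.3 to 28.3 (0.26, SE 0.20). Ago2, the slicer of the RNA interference pathway next to the Peg13 domain, ran from 2064 to 2891 and from 2022 to 3090 (0.15, SE 0.12).

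Over the 24 pairs of genes of one domain, 18 had an r above 0, the median r was 0.26, and the 5 pairs with an adjusted p of r under 0.05 were all positive. In the other domains no pair passed. Mest and Copg2 had an r of 0.21 (permutation p = 0.535, adjusted p = 0.714, rho -0.03, permutation p = 0.947) and Gnas and Nespas one of -0.12 (permutation p = 0.742, adjusted p = 0.798, rho 0.01, permutation p = 1). Zrsr1 and Commd1 had an r of 0.42 (permutation p = 0.227, adjusted p = 0.546, rho 0.20, permutation p = 0.584), which was -0.01 without gene trap replicates 2 and 5.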

How the data were processed

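Total RNA of whole mouse mammary tumors was sequenced after a stranded total RNA library preparation. The labels list 16 tumors, 8 wildtype and 8 gene trap, and 10 columns of the deposited table carried a name that matched 1 of them (5 wildtype, 5 gene trap). Another 6 columns matched no label and were not used. The deposited values are a signal per gene that the authors made by scaling read counts by the median ratio, so they are not whole numbers. The submitters' processing notes name Partek, STAR 2.7.8a, DESeq2 and the mm39 build, while the counter, its annotation and its strand setting were not given in the sources used here. Sequencing depth cannot be read from scaled values, and no counting interval is given. Ensembl identifiers were paired with symbols through a reference table of gene names, where 22899 of 23609 matched. Exon lengths, exon overlaps and chromosome numbers came from GENCODE M21, and no coordinate of it is given.

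Values were tested as log2(value + 1) with limma 3.58.1 in R 4.3.3 (variance trend, Benjamini-Hochberg adjustment over all 21034 genes with a mean of at least 10), and called at an adjusted p under 0.05. A fold change on that scale understates the change of low genes. Single values also had an exact two-sided permutation test over all 252 arrangements of the tumors, whose smallest p is 0.00794. Correlations had 100000 permutations. Both procedures were tested on simulated data. Alternatives were no filter or a minimum mean of 50, a pseudocount of 0.5 or 5, a limma fit without the variance trend or with weights per tumor, quantile normalization, the replicate number as a block, and each tumor left out in turn. The sample titles give a group and a replicate number and name no mouse. Each tumor was treated as a separate mouse, and p-values measure the spread between tumors. A wildtype and a gene trap tumor of equal number differ in genotype and so in animal, and the titles name no litter or day. The correlation of the deviations of same-numbered tumors ran from -0.156 to 0.149, so the numbers were not used to pair tumors.

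Genes given in full were the 10 tested imprinted genes with the smallest unadjusted p, the 5 with the largest SD of log2 values and the tested gene of each domain with the highest mean. The imprinted genes, domains and lists were chosen with earlier results of these data known. Promoter windows and miRNAs came from RefSeq on GRCm38.p6 and no coordinate was carried between builds. Figures were drawn with matplotlib 3.10.9 in Python 3.11.15.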

Additional observations from a re-analysis of the deposited data

Results flagged for a closer look

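Within each group of 5 tumors, the highest or lowest value of a tested imprinted gene was compared with the gap to its neighbor. Of 84 groups examined, which include Resf1, 8 held a value far from the other 4 by Dixon's criterion (0.71), where about 1 in 20 groups, or 4.2, is given by chance. Kcnq1 in wildtype replicate 2 was 141, against 81 to 97 in the other wildtype tumors. Mest in wildtype replicate 2 was 300, against 88 to 124. Mirg in wildtype replicate 5 was 73.6, against 26.5 to 34.6, and Peg12 in wildtype replicate 5 was 18.0, against 6.5 to 9.1. Rian in gene trap replicate 1 was 1313, against 507 to 716 in the remaining tumors of its group. Nnat in gene trap replicate 2 was 260, against 106 to 134, and Commd1 in gene trap replicate 2 was 1875, against 1187 to 1355. Inpp5f in gene trap replicate 5 was 1300, against 974 to 1029.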

How the results depend on the processing

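The count of imprinted genes with an adjusted p under 0.05 by limma was 0 under every alternative run. At an unadjusted p under 0.05, 0 genes were higher with quantile normalization and with the replicate block, 3 (Kcnq1ot1, Mirg and Rtl1) with weights per tumor, and 0 to 3 with a tumor left out. Lower genes numbered 1 (Asb4) with no filter on low values, 1 (Slc22a18) with weights per tumor, and 0 to 2 with a tumor left out (Grb10 and Peg10 without wildtype replicate 1). The replicate block, in which equal numbers mark different animals, left 0 imprinted genes at an unadjusted p under 0.05, and 1 of 5 wildtype tumors correlated best with the gene trap tumor of its own number. The pairs of genes of one domain that passed numbered 5 over deviations and with a pseudocount of 5, and 1 to 5 with a tumor left out: 2 without wildtype replicate 2, 3 without gene trap replicate 3 or 5, and 1 without wildtype replicate 4 or 5 or gene trap replicate 1. With weights per tumor the log2 fold change changed sign for Impact (0.037), Ube3a (0.023) and Commd1 (-0.049). With a tumor left out it crossed 0 in 22 tested imprinted genes, with ranges of -0.210 to 0.314 for Mkrn3, -0.236 to 0.337 for Mest, -0.021 to 0.398 for Rian, -0.051 to 0.252 for H19, -0.068 to 0.161 for Igf2r, -0.073 to 0.042 for Impact, -0.138 to 0.002 for Copg2, -0.045 to 0.042 for Blcap, -0.020 to 0.070 for Ppp1r9a, -0.066 to 0.076 for Trappc9, -0.295 to 0.008 for Peg3, -0.039 to 0.063 for Plagl1, -0.347 to 0.024 for Slc38a4, -0.045 to 0.043 for Ube3a, and -0.072 to 0.092 for Commd1 among the genes given in full, and of -0.14 to 0.22 for Igf2, -0.13 to 0.07 for Kcnq1, -0.02 to 0.15 for Cd81, -0.01 to 0.16 for Tssc4, -0.08 to 0.25 for Zim1, -0.15 to 0.02 for Snrpn and -0.09 to 0.22 for Sgce. Depth was not known, genes near a value of 10 are the least certain, and the cause of these changes was not tested.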
